A study of Mus musculus with 8 samples.

Results

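The genes described here are markers of developing red blood cells, read in RNA of whole mouse skin. Of 9 genes listed for this group, 8 had a transcript cluster (the set of probes that the array summarizes to 1 value) carrying exactly 1 gene symbol, out of 19938 genes so named; the other listed gene was not analysed here. The 8 are Alas2, Slc4a1, Rhag, Epb42, Car1, Car2, Klf1 and Gata1, each with 1 such cluster, and 6 of them lay above the brightness filter that left 15174 genes for testing. Epb42 and Rhag lay under the filter on all 8 arrays and have values but no model test.

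The tissue was skin in its full thickness, taken after decapitation from E17.5 mice of a mixed C57BL6/SV129 background. Each of 4 arrays carried the RNA of a sample labelled PpargΔ/Δ, or PPARgamma null, and each of 4 arrays that of a sample labelled PPARgamma wildtype, called control. PPARgamma is a nuclear receptor needed for fat cells to form, and the series set skin without it against control skin. The labels give neither litter nor sex, name no Cre or promoter, and say neither which part of Pparg was deleted nor whether blood was rinsed from the skin, so p-values measure the spread between these RNAs. Pparg itself was not lower on labelled-null arrays, reading 9.12 ± 0.10 there and 8.94 ± 0.13 on control arrays (log2 values, SD, n = 4 each). Its groups overlapped (limma unadjusted p = 0.0393, adjusted p = 0.9995, exact two-sided permutation p = 0.0857). The labels do not say whether its probes lie in the deleted part. Every direction below is given for arrays as labelled. The 8 skin identity genes, among them keratins of epidermis and collagens of dermis, all lay above the filter, with a list mean of 12.34 to 12.38 on labelled-null arrays and 12.35 to 12.41 on control arrays.

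Red blood cells of a late mouse embryo come mainly from the fetal liver and pass through the skin in its vessels, where the youngest still hold RNA. In their precursors the transcription factors GATA1 and KLF1 switch on the genes for haem synthesis, globin and the red cell membrane. RNA of these genes in skin can come from blood held in the tissue, and Car2 and Gata1 are also used by other cells, Gata1 by mast cells and platelet precursors and Car2 by osteoclasts, among others. In RNA of whole tissue, more erythroid cells and more RNA per erythroid cell cannot be told apart.

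Promoters of 3 of the genes are shown because GATA1 reads a short word that stands near many red cell genes. It was searched on both strands as AGATAA, as well as in the form TGATAA, in the form AGATAG and in the form TGATAG. The promoters are RefSeq sequences of assembly GRCm38.p6, from 250 bases before to 50 bases after the start, 5′ to 3′ on the gene's strand, and capitals mark such a word, here as its reverse complement. Of the 8 genes, 5 had an entry in the table. Alas2 (chrX:150547167-150547466, plus strand) and Rhag (chr17:40810899-40811198, plus strand) are the pair that moved together most closely across the arrays, and Klf1 (chr8:84901732-84902031, plus strand) is shown beside them as a regulator.
Alas2: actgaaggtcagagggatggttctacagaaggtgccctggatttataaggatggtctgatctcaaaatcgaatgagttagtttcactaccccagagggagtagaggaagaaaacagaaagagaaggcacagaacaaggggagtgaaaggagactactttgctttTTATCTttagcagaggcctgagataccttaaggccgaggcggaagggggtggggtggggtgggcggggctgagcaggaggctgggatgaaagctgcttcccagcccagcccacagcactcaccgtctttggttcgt
Rhag: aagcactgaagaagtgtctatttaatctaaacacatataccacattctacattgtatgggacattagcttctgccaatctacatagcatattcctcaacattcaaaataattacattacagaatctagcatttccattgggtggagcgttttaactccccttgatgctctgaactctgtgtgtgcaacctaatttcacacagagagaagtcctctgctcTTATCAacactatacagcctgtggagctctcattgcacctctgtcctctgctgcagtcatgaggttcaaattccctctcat
Klf1: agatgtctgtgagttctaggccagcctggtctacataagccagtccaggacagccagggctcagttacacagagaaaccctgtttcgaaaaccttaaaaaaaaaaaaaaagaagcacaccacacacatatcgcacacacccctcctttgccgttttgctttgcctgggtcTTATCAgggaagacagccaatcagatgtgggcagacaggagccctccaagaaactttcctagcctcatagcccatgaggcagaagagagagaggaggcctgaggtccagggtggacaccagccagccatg
Each of the 3 holds 1 such word, at -86, -31 and -80 from the start in the order shown. Epb42 also holds 1 and Gata1 none, and 29.8% of 32851 promoters of this length hold at least 1. The KLF1 word CCNCNCCCN stands 4 times in the Alas2 promoter and 3 times in that of Gata1, in none of the other 3, and in 49.4% of all promoters. These words are a description of the letters, and no binding was measured.

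The array medians lay between 6.93 and 6.96 and the arrays correlated pairwise at 0.989 to 0.994. On the first principal component labelled-null array 4 (score -22.8) and control array 1 (-9.62) stood apart from the rest (-0.95 to 8.96). Without both, the differences (labelled Pparg null minus control) were 0.29 for Car1, 0.33 for Car2, 0.17 for Gata1, 0.21 for Alas2, 0.06 for Slc4a1 and -0.09 for Klf1. In limma 0 of 6 passed without these arrays. With all arrays, the component scores correlated with Alas2 at r = -0.46, and their part in the covariation described below was not tested.

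None of the tested erythroid genes passed the threshold between the groups. In limma, 0 of 6 had an adjusted p under 0.05, against 0.119% of all tested genes (0.00659% higher). With an unadjusted p under 0.05 there were 3 of 6 (Car1, Car2 and Gata1), each higher, against 3.61% of all tested genes in either direction and 1.51% higher. Car1 entered the test only through the labelled-null arrays, on which it was brighter, so this count is a description. Of all 8 genes, 6 had a mean above control, against 49.7% of all tested genes; the genes share arrays and several vary together. Log2 values of different genes come from different probes and are compared only between arrays.

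**Figure D1:**
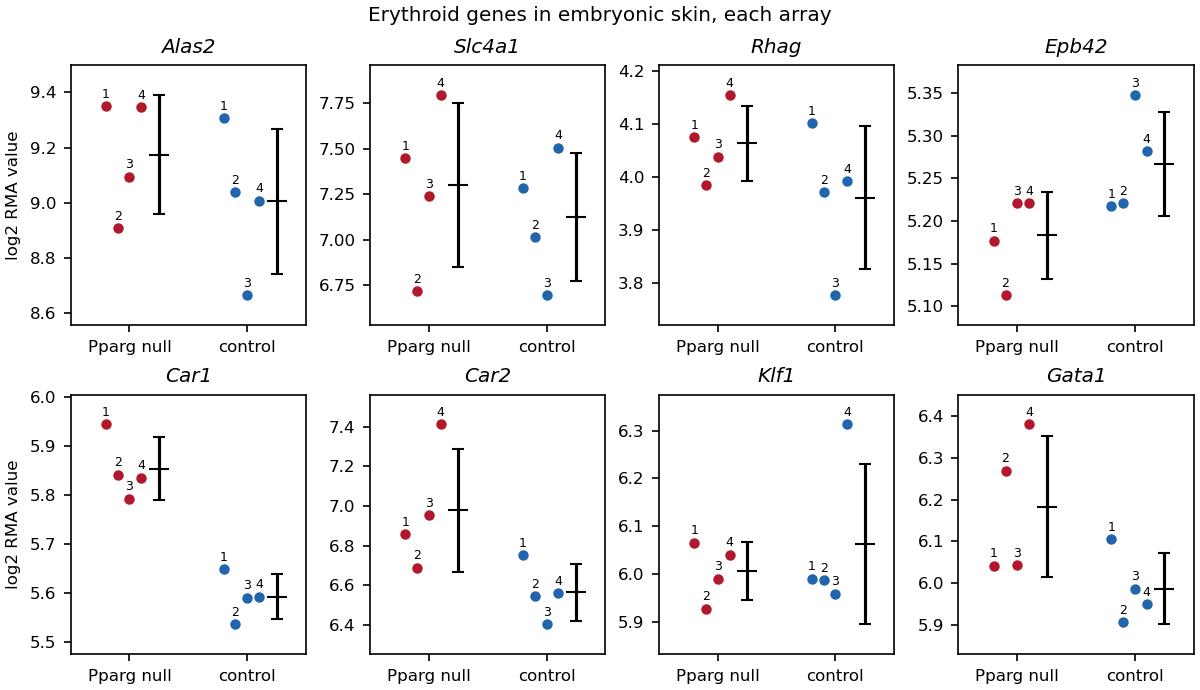
Log2 RMA values (y axis) of the 8 erythroid genes on each array, with the array number beside each point, arrays labelled Pparg null on the left and control arrays on the right of each panel; bars are the mean ± SD, n = 4. Car1 separates the groups, with all labelled-null arrays at or above 5.79 and all control arrays at or below 5.65, and in the other 7 panels the groups overlap.

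Alas2 makes the first and rate-limiting enzyme of haem synthesis in red cell precursors. It read 9.35, 8.91, 9.10 and 9.35 on labelled-null arrays 1 to 4, against 9.31, 9.04, 8.67 and 9.01 on control arrays 1 to 4. Labelled-null arrays 1 and 4 and control array 1 were high, control array 3 was low, and the groups overlapped. The difference was 0.17 (95% confidence interval -0.14 to 0.48, limma adjusted p = 0.9995). It was 0.06 without control array 3 and 0.27 without control array 1.

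Slc4a1 is the anion exchanger that carries bicarbonate across the red cell membrane. It read 7.45, 6.72, 7.24 and 7.79 on the labelled-null arrays, against 7.28, 7.01, 6.70 and 7.51 on the control arrays. It spread over more than a log2 unit within the labelled-null group, and the control range overlapped it over almost its whole length. The difference was 0.17 (95% confidence interval -0.34 to 0.69, limma adjusted p = 0.9995), and it was 0.01 without labelled-null array 4 and 0.37 without labelled-null array 2. Its spread within groups was larger than that of 99.1% of tested genes (pooled SD 0.40, against a median of 0.10).

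Rhag, a membrane glycoprotein of the red cell that conducts ammonia, read 4.08, 3.99, 4.04 and 4.15 on the labelled-null arrays, against 4.10, 3.97, 3.78 and 3.99 on the control arrays. All were dim, and control array 3 was again the lowest. The difference of 0.10 was within the spread of the arrays (exact two-sided permutation p = 0.257). Epb42, which ties the anion exchanger to the membrane skeleton, read 5.18, 5.11, 5.22 and 5.22 on the labelled-null arrays, against 5.22, 5.22, 5.35 and 5.28 on the control arrays. It was the other dim gene, and control array 3 was its highest reading, not its lowest. The difference was -0.08 (exact two-sided permutation p = 0.171). The brightness filter lay between 5.62 and 5.67 on the 8 arrays, so both genes were below it everywhere, and a dim cluster understates any change.

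The carbonic anhydrases of the red cell had the largest differences among the members. They speed the exchange of carbon dioxide and bicarbonate, and their genes are near neighbours, with Car3 the one coding gene between them in RefSeq. Car1 read 5.94, 5.84, 5.79 and 5.84 on the labelled-null arrays, against 5.65, 5.54, 5.59 and 5.59 on the control arrays. The groups did not overlap, which held for 2.45% of all tested genes in either direction and for 0.784% in this one. Car1 was 1.20-fold higher, a difference of 0.26 (SE 0.051, 95% confidence interval 0.15 to 0.38), with a limma unadjusted p of 0.000488 and an adjusted p of 0.239 (0.137 to 0.821 over its alternatives). By exact permutation, two-sided, p was 0.0286, which 4 against 4 arrays cannot go below. All 4 control values lay under the filter and all 4 labelled-null values above it, so Car1 was tested only because of its brighter group. With no filter on brightness, the difference of Car1 had a limma adjusted p of 0.334.

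Car2 read 6.86, 6.69, 6.95 and 7.41 on the labelled-null arrays, against 6.75, 6.55, 6.40 and 6.56 on the control arrays. Labelled-null array 4 stood well above the rest, and the groups overlapped through control array 1 and labelled-null array 2. Car2 was 1.33-fold higher, a difference of 0.41 (SE 0.14, 95% confidence interval 0.10 to 0.73, limma unadjusted p = 0.0152, adjusted p = 0.9995). Of the 15174 tested genes, 0.145% differed by as much upwards, Car2 included. Without labelled-null array 4 the difference was 0.27, and the exact two-sided permutation p over all arrays was 0.0571.

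The regulators Gata1 and Klf1 did not follow each other. Gata1 read 6.04, 6.27, 6.04 and 6.38 on the labelled-null arrays, against 6.11, 5.91, 5.99 and 5.95 on the control arrays. Labelled-null arrays 2 and 4 were high, and the other arrays of that group lay below control array 1. The difference was 0.20 (95% confidence interval 0.01 to 0.39, limma unadjusted p = 0.0439, adjusted p = 0.9995, exact two-sided permutation p = 0.114). The difference of Gata1 was 0.13 without labelled-null array 4. Its unadjusted limma p was above 0.05 in 5 of 8 fits that left out 1 array, with the replicate block (0.0771), with the trended and robust prior (0.0526) and with Alas2 as a covariate (0.0921). Klf1 read 6.07, 5.93, 5.99 and 6.04 on the labelled-null arrays, against 5.99, 5.99, 5.96 and 6.31 on the control arrays. One control array, number 4, set its direction, since the difference was -0.06 with all arrays (limma adjusted p = 0.9995) and 0.03 without control array 4.

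Alas2, Rhag, Slc4a1 and Car2 tended to vary together from array to array and are grouped here for that reason. The tests here pool the arrays of both groups, so they include any difference between the groups. Over all 8 arrays the closest pair was Alas2 and Rhag, with Pearson r = 0.944 (exact permutation p = 0.00062, adjusted over 21 pairs 0.013) and Spearman rho = 0.857 (exact permutation p = 0.0107, adjusted 0.075). Without control array 3 and labelled-null array 1, the arrays farthest from the Alas2 median, their r was 0.942. Alas2 and Slc4a1 had r = 0.806 (exact permutation p = 0.0159, adjusted 0.111) and rho = 0.714 (exact permutation p = 0.0576, adjusted 0.173), with r = 0.717 without the same arrays. Car2 and Rhag had r = 0.806 (exact permutation p = 0.026, adjusted 0.116) and rho = 0.881 (exact permutation p = 0.00724, adjusted 0.075), and r fell to 0.657 without labelled-null array 4 and control array 3. Of 21 pairs, 1 passed after adjustment by Pearson's r and 0 by Spearman's rho, where 7 had an unadjusted Pearson p under 0.05. The pair that passed includes Rhag, a dim cluster that lay under the brightness filter on all 8 arrays (3.78 to 4.15). Car1 was left out of these pooled pairs because its groups do not overlap.

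**Figure D2:**
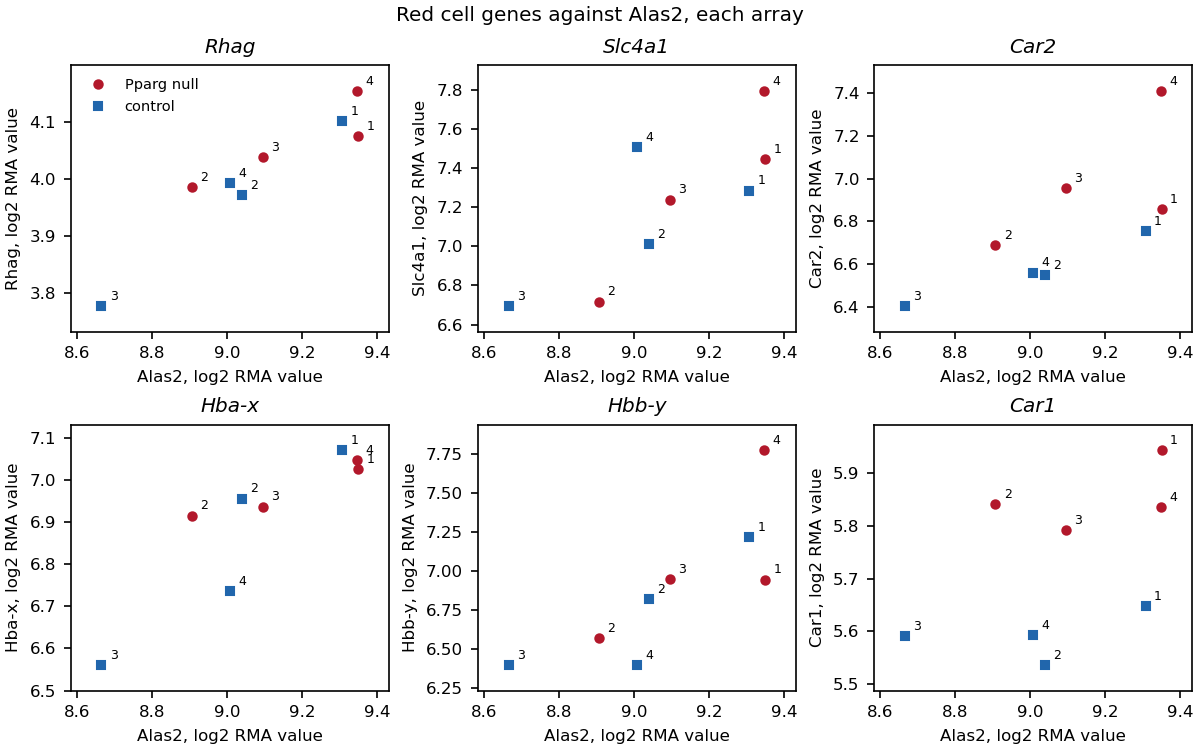
Log2 RMA values of Rhag, Slc4a1, Car2, Hba-x, Hbb-y and Car1 (y axes) against Alas2 (x axes) on each array, circles for arrays labelled Pparg null and squares for control arrays, with array numbers beside them. In the first 5 panels arrays high in Alas2 tend to be high in the other gene, with control array 3 at or near the bottom left, and in the Car1 panel all labelled-null arrays lie above all control arrays.

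As deviations of each array from the mean of its group, which removes the difference between groups, the 6 correlations among Alas2, Rhag, Slc4a1 and Car2 ran from 0.70 to 0.94 (n = 8 arrays, a description). The 4 genes were grouped for their high r over the same arrays, so high values came with the choice. Control array 3 and labelled-null array 2 were the low arrays of their groups in all 4 genes. Car1 correlated with Alas2 at 0.45 and with Car2 at -0.02. Gata1 correlated with Alas2 at 0.16 and with Klf1 at -0.18, and Epb42 with Rhag at -0.38. Klf1 came nearest to Slc4a1, at 0.69. Of all 28 pairs, 22 were above 0, with a median of 0.21.

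**Figure D3:**
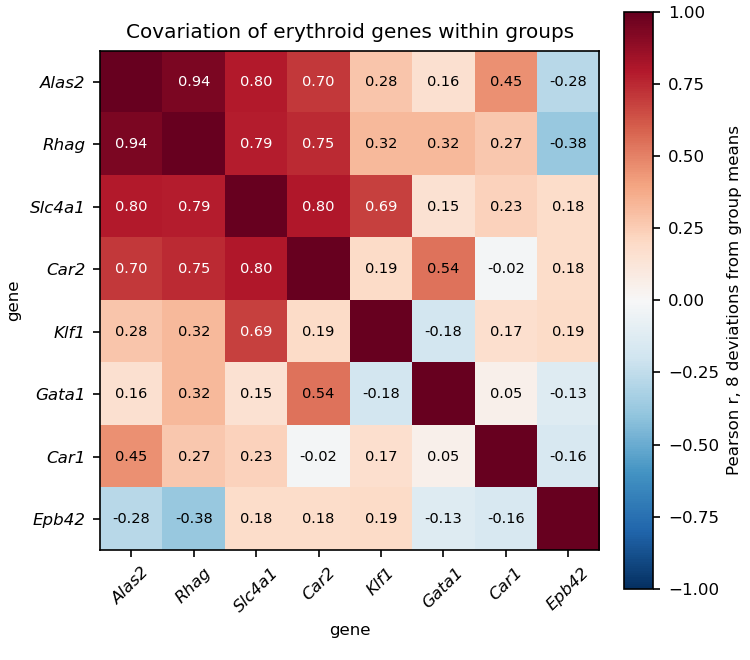
Pearson correlation of each pair of the 8 erythroid genes over 8 deviations from group means; rows and columns are genes, and colour and number give r. Alas2, Rhag, Slc4a1 and Car2 form a block of 0.70 to 0.94, while Gata1, Car1 and Epb42 reach at most 0.54 in any pair. The genes of the block were put side by side for their high r over these same arrays. Rhag and Epb42 lay under the brightness filter on all 8 arrays.

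Since the arrays differed in Alas2 within each group, the group differences were also fitted with the Alas2 value of each array as a covariate. The difference of Slc4a1 then became -0.05, while that of Car1 was 0.24, that of Car2 was 0.29 and that of Gata1 was 0.18. None of these passed over all genes in limma, with adjusted p of 0.699 for Car1 and 1 for the others.

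Of the globin genes with a symbol of their own, some followed Alas2 and others did not. Hba-x and Hbb-y, 2 of the embryonic globins made by the first, yolk sac wave of red cells, correlated with Alas2 within groups at 0.87 and 0.77. Among the others, Hbq1b did so at 0.48, Hbb-bh1 at 0.37, Hbb-bh2 at 0.21 and Hbq1a at 0.03. Hbb-bh1 and Hbq1a did not pass the brightness filter. Hbb-y read 6.94, 6.57, 6.95 and 7.77 on the labelled-null arrays, against 7.22, 6.82, 6.40 and 6.40 on the control arrays. The groups overlapped, and labelled-null array 4 was the highest of all (difference 0.35, limma adjusted p = 0.9995). The difference of Hbb-y was 0.11 without labelled-null array 4 and 0.52 without control array 1. Hba-x differed by 0.15, and Hbq1b and Hbb-bh2 by -0.02 and -0.01. Of 6 globin genes with a cluster of 1 symbol, 4 were tested, 2 above and 2 below control, and 0 passed (0 with an unadjusted p under 0.05). The clusters that cover the adult globin genes carry several symbols each and were not used.

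Genes of other steps in red cell life were on both sides of control, and none passed in limma. Of 9 tested haem synthesis genes, 5 lay above and 4 below control, with a median difference of 0.01, and of 9 iron uptake genes 4 lay above and 5 below (median -0.01). The median over all tested genes was -0.00058. Slc25a37, which carries iron into mitochondria for haem, differed by 0.15 and correlated with Alas2 at 0.82, and Alas1, the housekeeping counterpart of Alas2, differed by -0.12 and correlated with it at -0.04. In the haem list Tspo2 differed by 0.19, Alad by -0.06 and the mitochondrial carrier Slc25a38 by 0.05. Tspo2 lay above the filter on 3 labelled-null arrays and 1 control array, so it was tested mainly through its brighter group. In the iron list Steap3, which reduces iron in endosomes, differed by -0.11, and the iron sensors Aco1 and Ireb2 by -0.07 and 0.03.

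Of 12 tested red cell membrane genes, 8 lay above and 4 below control (median 0.03). The urea transporter Slc14a1 differed by 0.16, the glycophorin Gypc by 0.11, the skeleton gene Sptb by 0.11 and Dmtn by -0.06. Of 13 maturation genes, 8 lay above and 5 below (median 0.03). Bpgm, which makes the effector that lowers the oxygen affinity of haemoglobin, differed by 0.13 and correlated with Alas2 at 0.85. Cat, the peroxide-destroying catalase, differed by -0.23 with groups that did not overlap (limma unadjusted p = 0.012, adjusted p = 0.9995), where 1.67% of tested genes were lower without overlap. Isg20 and Blvrb differed by 0.17 each. In these lists and in those of haem and iron, 1 gene was higher and 1 lower with an unadjusted p under 0.05, namely Isg20 and Cat. Of all tested genes, 1.51% were higher and 2.1% lower by the same measure.

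Of 15 tested erythroid regulators, 5 lay above and 10 below control (median -0.02), and 0 had an unadjusted p under 0.05. Epor, the erythropoietin receptor, read 6.61, 6.55, 6.51 and 6.60 on the labelled-null arrays, against 6.78, 6.62, 6.69 and 6.65 on the control arrays. Its groups did not overlap, with a difference of -0.12 and a limma adjusted p of 0.9995. They were barely apart, at 6.612 for the highest labelled-null value and 6.616 for the lowest control value. Of all tested genes, 1.67% were lower without overlap. Hemgn differed by -0.13, Gfi1b by -0.12 and Lmo2 by 0.09. Many of these regulators are also used by platelet precursors, mast cells or endothelium.

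Car1 and Car2 were on the other side of control from several of their relatives. Among 12 other carbonic anhydrase genes tested, 7 lay above and 5 below control, 0 passed, and 3 were lower with an unadjusted p under 0.05, against 2.1% of all tested genes. Car5b, a mitochondrial form, differed by -0.57 (limma adjusted p = 0.643), Car4, anchored to the cell surface, by -0.47 with groups that did not overlap, and the secreted Car6 by -0.34. Of all tested genes, 1.67% were lower without overlap. Car3, the form of muscle and fat that lies between Car1 and Car2, differed by -0.40 (limma adjusted p = 0.9995). Car4 and Car6 correlated with Alas2 within groups at -0.77 and -0.87.

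A high within-group correlation with Alas2 was not confined to red cell genes, but it does not by itself show that a gene tracks Alas2. Over so few arrays and so many genes, unrelated genes can reach high values of either sign. The 5th and 95th percentiles of r to Alas2 over all tested genes were -0.69 and 0.67. Whether the genes at high r outside the red cell lists track Alas2 was not tested. Of all tested genes, 604 or 3.98% correlated with Alas2 within groups at over 0.7. Among the lists this held for 2 of 5 other tested members (Slc4a1 and Car2), 2 of 4 globins, 3 of 13 maturation genes (Bpgm, Ube2o and Ube2l6), 1 of 9 iron uptake genes, 1 of 12 membrane genes (Dmtn), 0 of 9 haem synthesis genes, 0 of 15 regulators and 0 of 12 other carbonic anhydrases. Of the lists of other cells it held for 1 of 14 endothelial genes, Cdh5, the cadherin of vessel walls, at 0.85, and for 0 genes of the platelet, neutrophil, macrophage, mast cell, osteoclast and skin identity lists. Cdh5 also exceeded 0.7 with Slc4a1 and with Rhag, and its part in the covariation was not tested. Gata1 correlated at over 0.7 with 15.6% of all tested genes, and Car1 with 1.92%.

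**Figure D4:**
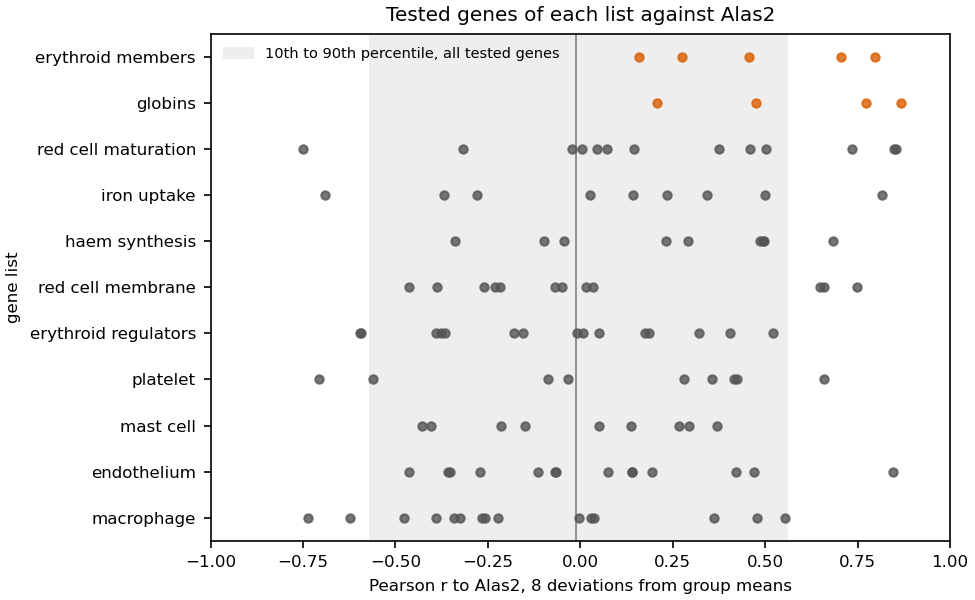
Pearson r to Alas2 over 8 deviations from group means (x axis) for each tested gene of a list (points, lists down the y axis); the grey band spans the 10th to 90th percentile of all tested genes (-0.57 to 0.56) and the line their median. Globins and the other erythroid members lie wholly at or above 0.16, and every other list spans both signs.

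The 12 genes outside the group whose deviations were most like the mean of the 6 tested members had r of 0.93 to 0.98 over 8 arrays. They were Ptpn7 (0.98), Syngr3, Myo1g, Gm13547, Unc5a, Ccl11, Nol12, Alkbh7, Neurog2, Ptgdr2, Chrm4 and Lsm4, and 0 of them stand on an erythroid list. Lsm4, a subunit of the splicing machinery, had r = 0.97 to Alas2. Among the tested genes outside the group, 33 exceeded 0.9. The 12 genes were picked for the highest r over the same 8 deviations, so a high r came with the choice. Over 8 arrays and so many genes, unrelated genes can reach such values. Whether these genes follow the erythroid genes was not tested.

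Markers of other blood and vessel cells were measured beside these results, and their part in them was not tested. Of 9 tested platelet genes 5 lay above and 4 below control, with Gp5 at 0.10 and Tubb1 at 0.09, and the summed linear level of the 10 with a cluster was 2910 to 3195 on labelled-null arrays and 3028 to 3344 on control arrays. Of 14 endothelial genes 7 lay above and 7 below, with Emcn at 0.20 and Cldn5 at -0.08, and sums of 8128 to 8538 on labelled-null arrays and 7797 to 8681 on control arrays. Of 5 tested neutrophil genes 4 lay above and 1 below, with Fcnb at 0.04 and S100a9 at 0.02, while 7 of the 12 on the list, among them S100a8 and Ngp, lay under the filter. Their sums were 548 to 641 on labelled-null arrays and 566 to 622 on control arrays.

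Of 15 macrophage genes 6 lay above and 9 below control, with sums of 5344 to 5967 on labelled-null arrays and 5600 to 6056 on control arrays. Siglec1 differed by -0.28 without overlap (limma adjusted p = 0.694), where 1.67% of tested genes were lower without overlap, and C1qa by -0.12. Of 9 tested mast cell genes 3 lay above and 6 below, with sums of 11299 to 12865 on labelled-null arrays and 12397 to 13132 on control arrays. The mast cell protease Mcpt4 differed by -0.50 (limma adjusted p = 0.643) and the tryptase Tpsab1 by -1.01 (limma adjusted p = 0.9995). The difference of Tpsab1 rested on single control arrays, at -1.48 without control array 2 (limma adjusted p = 0.0242), -0.72 without control array 1 (limma adjusted p = 0.9963) and -0.68 without labelled-null array 4 and control array 1 together. Of these 9 genes, 3 (Mcpt4, Tpsab1 and Ms4a2) were lower with an unadjusted p under 0.05, against 2.1% of all tested genes. Within groups 0 of the 9 mast cell genes and 2 of 9 platelet genes correlated with Gata1 at over 0.7, against 15.6% of all tested genes, 3 of 9 haem synthesis genes and 1 of 8 skin identity genes. Of 5 tested osteoclast genes 2 lay above and 3 below, with Acp5 at 0.15 and Ocstamp at 0.13, and sums of 988 to 1098 on labelled-null arrays and 988 to 1037 on control arrays. Car2 correlated within groups at over 0.7 with 6.77% of all tested genes. Among them were 2 of 5 osteoclast genes (Acp5 and Ocstamp) and 2 of 5 other tested members (Alas2 and Slc4a1). There was also 1 gene each of the platelet, neutrophil, macrophage, endothelial, globin, haem synthesis, iron uptake, membrane, maturation and other carbonic anhydrase lists. Of the 8 skin identity genes 3 lay above and 5 below, with Col1a1 at -0.09 and Col3a1 at -0.06. In limma, 0 genes of these 7 lists passed with all arrays.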

How the data were processed

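Total RNA was extracted with Trizol and columns, 100 ng was amplified with a whole-transcript kit and 5.5 μg of cDNA was labelled with biotin, per the labels' protocols. The deposited log2 values were made by the authors by RMA, which corrects background and quantile-normalizes arrays (Affymetrix Expression Console, as the submitters' processing notes name it). Their versions and annotation build were not given in the sources used here. This normalization hides shifts of all transcripts, and array number limits precision.

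Of 35556 clusters, 21789 had 1 symbol on the platform annotation, of which 21698 were updated through the gene ID to RefSeq GRCm38.p6 and 91 kept their symbol; 1621 had several and 12146 none. The brightest cluster stood for a gene. Genes above their array's 30th percentile on at least 4 of 8 arrays were tested with limma 3.58.1 (R 4.3.3), lmFit and eBayes, two-sided, without covariates, Benjamini-Hochberg over all 15174 genes, threshold 0.05. Differences are labelled Pparg null minus control. Exact permutation tests used all 70 assignments of arrays, or all 40320 pairings for correlations. The limma step was tested on simulated data.

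Named are the members, up to 4 genes of each erythroid or carbonic anhydrase list and 2 of each other list with the smallest unadjusted p, the 12 most like genes, and Pparg; others were named after their values were seen. Members and lists came from general knowledge but were chosen with earlier results of these data known. Alternatives were other filters (none, 50th percentile), centring, array weights, cyclic loess, the replicate block, a prior both trended and robust, averaged clusters, Xist or the member mean as a covariate, and leaving out each array. Alas2 as a covariate and leaving out labelled-null array 4 with control array 1 were added after seeing the data.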

Additional observations from a re-analysis of the deposited data

Results flagged for a closer look

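In 4 of 102 groups of 4 values, a single array stood off from its group; about 5.1 would by chance (1 in 20). The gap to the nearest array is given as a share of the group's range. For Klf1 this was control array 4, at 6.31, with its group otherwise at 5.96 to 5.99 (gap 0.911). Dmtn, a red cell membrane-skeleton gene, was at 6.80 on labelled-null array 2, where its group otherwise lay at 6.91 to 6.92 (gap 0.892). Hemgn, a nuclear protein of blood precursors, was at 5.42 on labelled-null array 3, its group otherwise lying at 5.72 to 5.77 (gap 0.862). Car3 was at 10.35 on control array 1, with 10.95 to 11.01 for its group otherwise (gap 0.916).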

How the results depend on the processing

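In limma no erythroid member passed under any alternative in which it was tested, and 6 or 7 of 8 lay above control. Of 139 alternative values of member differences, 2 changed sign: Slc4a1 at -0.0531 with Alas2 as a covariate, and Klf1, which ran from -0.091 to 0.0272 when 1 array was left out. Of 841 for other named genes, 14 changed sign. Hbb-y was -0.0841 with the member mean as a covariate, and the difference of S100a9 was -0.0504 with it and -0.0084 with Alas2 as a covariate. Without 1 array, Hbq1b ran from -0.14 to 0.11, Hbb-bh2 from -0.0566 to 0.0581, S100a9 from -0.0152 to 0.0435 and Col3a1 from -0.0883 to 0.0012. The 18 genes past the threshold became 1 with the replicate block, 11 with Xist, 11 with Alas2 and 3 with the member mean as a covariate, and 3 to 15 without 1 array; the cause was not tested. Same-numbered arrays deviated with r = -0.31, 0.20, 0.05 and -0.03, so the replicate block pairs arrays by number only, and it changed no member's call by adjusted p. The member mean was not run as a covariate for the members. The 50th percentile filter left Car1, Car2, Klf1 and Gata1 untested, so they could not pass under it. A group of 4 arrays leaves wide intervals, and clusters near background understate change.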
